A study of Mus musculus with 16 samples.

Results

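The genes described here are 10 adhesion and homing genes of hematopoietic stem cells (HSCs), the bone marrow cells from which all blood lineages arise. They were taken by symbol from a table of read counts, and all 10 were present among its 25239 genes. Their group consists of the integrin chains Itga4, Itga5, Itga6, Itgal, Itgb1 and Itgb2, the surface proteins Cd44 and Cd47, the chemokine receptor Cxcr4 and the secreted integrin ligand Spp1. All 10 passed the filter on low counts and were among the 14124 genes tested. The cells came from the bone marrow of mice aged 4 to 6 months that carried a knockout of Selp (KO) or intact Selp (WT). Selp encodes P-selectin, an adhesion receptor that binds the glycoprotein PSGL-1. Fresh HSCs gave 2 KO and 3 WT libraries. Vehicle cultures gave 3 KO and 3 WT libraries. Cultures with 125 ng/mL PSGL-1 for 24 hours gave 3 KO and 2 WT libraries. Cultured cells were held in StemSpan with serum and the cytokines SCF, IL-11 and Flt-3 ligand, so vehicle against fresh compares culture as a whole with no culture. How long vehicle culture lasted, which part of Selp was deleted and how many mice stand behind a library is not stated in the labels. The p-values therefore measure the spread between these libraries, which may be technical.

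Integrins are receptors made of 1 alpha and 1 beta chain that hold cells to matrix proteins and to other cells. In the marrow, the pair of Itga4 and Itgb1 products (VLA-4) binds fibronectin and VCAM-1, the pair of Itga5 and Itgb1 products (VLA-5) binds fibronectin, and the pair of Itga6 and Itgb1 products binds laminins. The Itgal and Itgb2 products form LFA-1, which binds ICAM proteins on other blood and endothelial cells. Cxcr4 is the receptor through which the chemokine CXCL12 draws stem cells into the marrow and holds them there. Cd44 binds hyaluronan and osteopontin, and Cd47 is the signal on the cell surface that restrains engulfment by macrophages. Spp1 encodes osteopontin, a matrix protein of the endosteal niche that binds integrins and Cd44.

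The sequences shown are those of the 2 members that passed the test in culture, Spp1 and Itga4. Spp1 lies at chr5:104435111-104441053 and Itga4 at chr2:79255426-79333114 (GRCm38.p6), both on the plus strand. The other members lie at chr15:103344286-103366791 (Itga5), chr2:71786886-71858427 (Itga6), chr7:127296139-127335137 (Itgal), chr8:128685654-128733579 (Itgb1), chr10:77530329-77565708 (Itgb2), chr2:102811141-102901669 (Cd44), chr16:49851328-49912503 (Cd47) and chr1:128588199-128592299 (Cxcr4). The osteopontin coding sequence holds 1 arginine-glycine-aspartate motif, the site that integrins recognise. Its codons 160 to 162 of 310 stand in capitals in the stretch of codons 156 to 172, from exon 6 of 7 of the transcript used, at chr5:104439469-104439519 (GRCm38):

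Spp1 coding stretch: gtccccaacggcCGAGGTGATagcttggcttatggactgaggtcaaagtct

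The promoter windows run from 250 bases before to 50 bases after the annotated start (RefSeq, GRCm38.p6), with motif matches in capitals. They are chr5:104434861-104435160 for Spp1 and chr2:79255176-79255475 for Itga4, 300 bases each:

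Spp1 promoter: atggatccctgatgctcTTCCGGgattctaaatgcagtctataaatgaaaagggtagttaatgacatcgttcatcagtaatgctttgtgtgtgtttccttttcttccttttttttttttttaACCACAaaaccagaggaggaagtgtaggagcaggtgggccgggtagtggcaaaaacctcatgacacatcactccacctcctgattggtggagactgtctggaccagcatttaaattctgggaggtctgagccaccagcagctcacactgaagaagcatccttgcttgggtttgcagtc

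Itga4 promoter: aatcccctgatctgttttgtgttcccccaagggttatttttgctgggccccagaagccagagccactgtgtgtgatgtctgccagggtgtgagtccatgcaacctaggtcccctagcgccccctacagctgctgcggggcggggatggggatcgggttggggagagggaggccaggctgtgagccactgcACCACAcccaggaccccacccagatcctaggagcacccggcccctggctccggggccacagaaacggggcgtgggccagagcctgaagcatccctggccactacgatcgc

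Motifs of 5 factor families were searched on both strands. The motif of the RUNX factors (TGTGGT) was found on the minus strand in both windows, beginning at base -128 from the start of Spp1 and at base -60 from the start of Itga4, and it occurs in 16.7% of 32544 promoter windows of the same length. The Spp1 window also held the motif of the ETS factors (CCGGAA) on the minus strand at base -233, as do 15% of all windows. Neither window held the letters of AP-1 (TGANTCA), which occur in 7.79% of all windows. The letters of the E-box (CACGTG) occur in 7.17% of windows and in neither of these. Those searched for the zinc finger factors of the GATA family (AGATAA) occur in 11.2% of windows and in neither of these. No matches overlapped. A further annotated start of Spp1 had none of the 5 motifs in its window. These matches describe letters and not binding.

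The libraries held 12590539 to 24690824 counts, so that 3 counts, taken as the detection floor of a library, equal 0.122 to 0.238 CPM, the count scaled to a fixed library total. Selp read 0 to 12.4 CPM in the 8 KO libraries and 16.8 to 183 CPM in the 8 WT libraries. The HSC markers Kit, Ly6a, Procr, Mecom, Hlf and Hoxb5 had counts in all 16 libraries, while Fgd5 was at 0 in 1 and Slamf1 in 3. Cd48, which HSCs are known to lack, was at 0 in 6 libraries and reached 9.57 CPM. The library WT PSGL-1 replicate 1 was sparse, with 9035 detected genes where the rest ranged from 11101 to 13480.

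Spp1 was almost absent from fresh HSCs and present in every cultured library. In vehicle culture it had 245, 1000.1 and 192 CPM in KO libraries and 202, 782 and 125 CPM in WT libraries. In fresh cells it had 0 and 1.87 CPM in KO libraries and 1.60, 2.07 and 7.80 CPM in WT libraries. The lowest vehicle library, at 125 CPM, lay far above the highest fresh library, at 7.80 CPM. In bulk samples more cells with Spp1 RNA and more Spp1 RNA per cell cannot be told apart.

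The Spp1 difference passed the test in each genotype. In KO cells the log2 fold change of vehicle against fresh was 9.07 (SE 1.70, adjusted p = 0.0117, edgeR quasi-likelihood test). Its size is not a measured one, because KO fresh replicate 1 had 0 counts. In WT cells the log2 fold change was 6.67 (SE 1.25, adjusted p = 0.0131 by edgeR), higher in 3 of 3 libraries. Averaged over both genotypes it was 7.87 (SE 1.098, adjusted p = 0.000434 by edgeR), a size that carries the unmeasured KO one. The average passed in all 16 fits that left out 1 library, at 7.29 to 11.30, and KO fresh replicate 2 was the library behind the highest of these. In WT cells alone, dropping WT fresh replicate 3 moved the log2 fold change to 7.75 and dropping WT vehicle replicate 2 moved it to 5.51. In KO cells dropping KO vehicle replicate 2 moved it to 7.94. The WT call was lost without WT fresh replicate 1 (adjusted p = 0.0706 by edgeR) and without WT fresh replicate 2 (adjusted p = 0.0958 by edgeR), and the KO call without KO fresh replicate 1 (adjusted p = 0.144 by edgeR). In limma voom with library quality weights the averaged change was 8.43 and did not pass (adjusted p = 0.290). Apart from the fits that left out 1 library there were 8 alternatives. Spp1 passed in 7 of these 8 in KO cells and in 7 of 8 in WT cells.

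Itga4, the alpha chain of VLA-4, moved the other way. It had 15.99, 12.6 and 29.4 CPM in KO vehicle libraries and 12.8, 19.5 and 27.6 CPM in WT vehicle libraries. The fresh libraries had 78.5 and 101 CPM in KO cells and 70.2, 62.4 and 132 CPM in WT cells. All 6 vehicle libraries lay below all 5 fresh libraries. Averaged over both genotypes, Itga4 fell by 2.11 on the log2 scale (SE 0.41, adjusted p = 0.00501, edgeR quasi-likelihood test). This call held in each of 16 fits that left out 1 library, with values of -2.33 to -1.89. Within a genotype it did not pass, at -2.18 in KO cells (SE 0.59, adjusted p = 0.0835 by edgeR) and -2.04 in WT cells (SE 0.55, adjusted p = 0.0901 by edgeR). Of the 16 fits that left out 1 library, only 2 called Itga4 in KO cells and only 2 in WT cells. Without the sparse library it passed in KO cells (-2.15, adjusted p = 0.0236 by edgeR), as did 3.67% of genes, and in WT cells (-2.04, adjusted p = 0.0245 by edgeR), as did 2.91%.

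**Figure D1:**
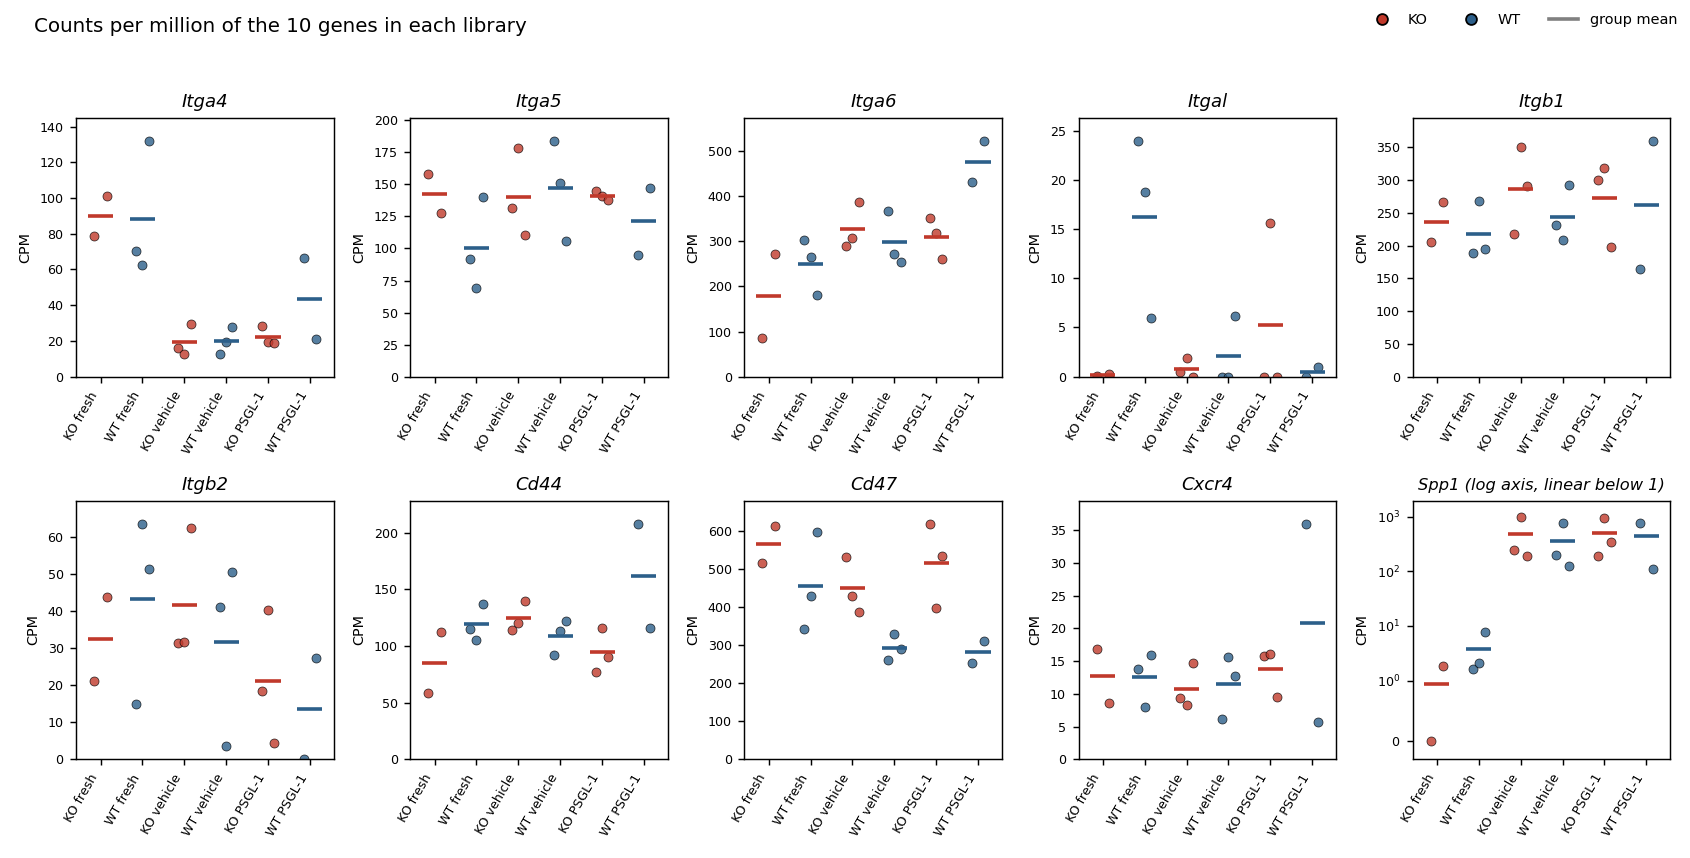
CPM of the 10 genes in each library (points) with the group mean (line). KO groups stand left of WT groups within fresh, vehicle and PSGL-1, and the Spp1 axis is logarithmic above 1. Spp1 lies at 0 to 7.80 CPM in the 5 fresh libraries and at 109.6 to 1000.1 CPM in the 11 cultured ones, and Itga4 lies lower in all 6 vehicle libraries than in the 5 fresh ones.

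Counted over the members, 1 of 10 was higher and none lower in vehicle against fresh KO cells, where 1.77% of all tested genes passed, 1.23% higher and 0.538% lower. In WT cells, too, 1 of 10 was higher and none lower, where 1.64% passed, 1.23% higher and 0.404% lower. In the average of both genotypes 1 was higher and 1 lower, where 6.48% of genes passed, 4.18% higher and 2.30% lower. Spp1 and Itga4 were also the 2 members whose vehicle and fresh libraries did not overlap in both genotypes together, as was true of 9.56% of all genes. Taken by genotype, 3 members lay wholly higher with vehicle in KO cells (Spp1, Itga6 and Cd44), where 15.3% of genes did, and 1 wholly lower (Itga4), where 20.3% did. In WT cells 1 lay wholly higher (Spp1), where 8.38% of genes did, and 2 wholly lower (Itga4 and Cd47), where 14.8% did. The median log2 fold change of the 10 members in the average of both genotypes was 0.17, against -0.07 over all tested genes.

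Neither Itga5 nor Itgb1 was called in any of the 11 comparisons. Itga5, the fibronectin receptor alpha chain, averaged 140.3 ± 34.6 CPM in KO vehicle and 147 ± 39.0 CPM in WT vehicle libraries (SD, n = 3 each), against 143 ± 21.9 CPM in KO fresh (n = 2) and 100.2 ± 36.3 CPM in WT fresh libraries (n = 3). Itgb1, the beta chain shared by the Itga4, Itga5 and Itga6 products, averaged 286 ± 66.2 CPM in KO vehicle and 244 ± 43.1 CPM in WT vehicle libraries, against 236 ± 42.8 CPM in KO fresh and 217 ± 44.2 CPM in WT fresh libraries. Both genes overlapped between all groups compared.

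Itga6, the laminin-binding alpha chain that is also used to sort HSCs, read 289.9, 307 and 387 CPM in KO vehicle libraries. In KO fresh libraries it read 85.9 and 271 CPM. In WT cells it read 367, 271 and 255 CPM with vehicle and 303, 264 and 180.3 CPM when fresh. The KO vehicle libraries lay above both KO fresh libraries, as did 15.3% of all genes, while the WT groups overlapped. The log2 fold change was 0.95 in KO cells (SE 0.36, adjusted p = 0.26 by edgeR) and 0.65 in the average of both genotypes (SE 0.24, adjusted p = 0.128 by edgeR). Itga6 passed in the average without KO fresh replicate 2, which leaves the KO fresh library of 85.9 CPM alone in its group (1.13, adjusted p = 0.00376 by edgeR), and in limma voom with quality weights (0.72, adjusted p = 0.0346).

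The LFA-1 chains varied widely. Itgal, its alpha chain, had 1 and 4 counts (0.0569 and 0.234 CPM) in KO fresh libraries, against 23.9, 18.7 and 6.01 CPM in WT fresh libraries. The fresh groups did not overlap, and KO was lower, as in 9.95% of all tested genes. Among the 11 cultured libraries Itgal was at 0 in 6 and reached 15.7 CPM in KO PSGL-1 replicate 2. Itgb2, its beta chain, lay between 0 and 63.4 CPM over the 16 libraries, with 21.2 and 43.7 CPM in KO fresh and 14.9, 63.4 and 51.2 CPM in WT fresh libraries. Its groups overlapped in every comparison, and neither chain was called in any of the 11 comparisons of the fit over all libraries. Itgb2 passed between KO and WT with PSGL-1 when WT PSGL-1 replicate 2 was left out, so that the sparse library, at 0 CPM, stood alone for WT and 19.8% of genes passed.

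Cd44, the hyaluronan receptor, read 114, 121 and 139.8 CPM in KO vehicle libraries, above the 58.1 and 113 CPM of the KO fresh libraries. WT vehicle libraries read 91.9, 113 and 122 CPM, against 115, 105 and 137 CPM in WT fresh libraries. The KO vehicle libraries lay wholly higher, as did 15.3% of all genes, and the WT groups overlapped. Cd44 was not called in culture, with a log2 fold change of 0.60 in KO cells (SE 0.32, adjusted p = 0.516 by edgeR). The difference of its vehicle against fresh change, KO minus WT, was 0.63 (SE 0.43, unadjusted p = 0.164 by edgeR).

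Cxcr4, the homing receptor for CXCL12, was low and did not separate any groups. It had 9.41, 8.23 and 14.7 CPM in KO vehicle libraries and 6.11, 15.6 and 12.8 CPM in WT vehicle libraries. Fresh libraries had 16.8 and 8.65 CPM in KO cells and 13.8, 7.94 and 15.9 CPM in WT cells. The highest value, 35.96 CPM, stood in the sparse library WT PSGL-1 replicate 1, and the other library of that group had the lowest, 5.69 CPM. Without the sparse library the 10 other cultured libraries averaged 11.4 ± 4.09 CPM, against 12.6 ± 4.10 CPM in the 5 fresh ones (SD). No comparison called Cxcr4.

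**Figure D2:**
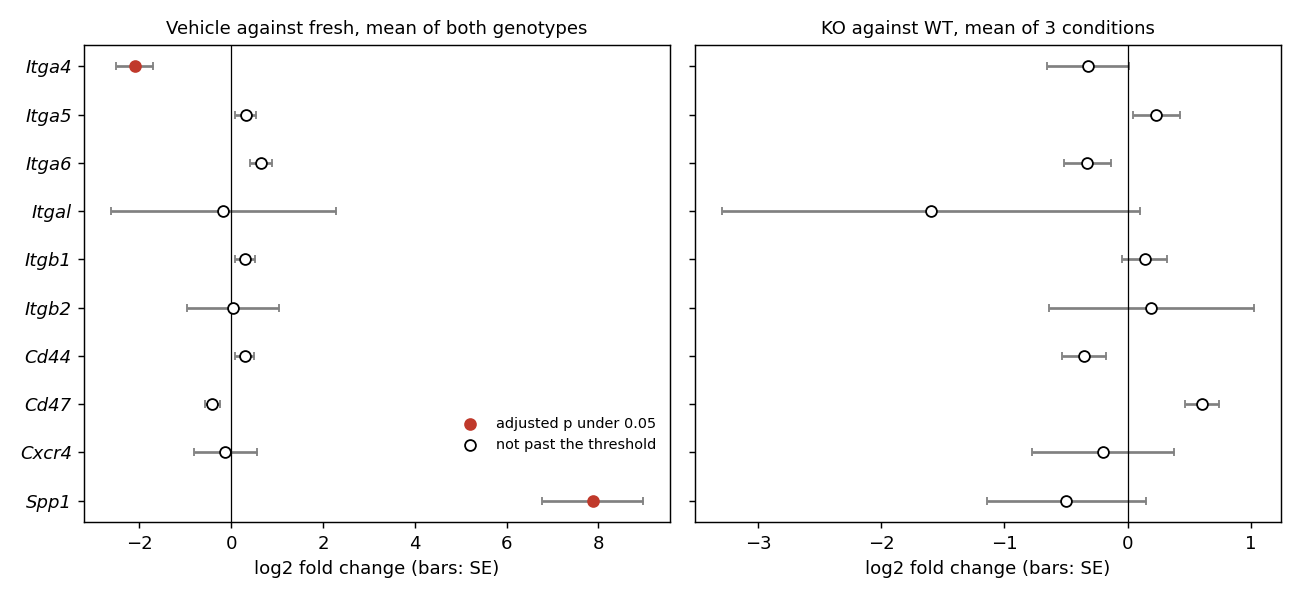
Log2 fold changes of the 10 genes (points) with their SE (bars), left for vehicle against fresh as the mean of both genotypes and right for KO against WT as the mean of the 3 conditions. Filled points passed an adjusted p of 0.05 in edgeR. On the left Spp1 (7.87) and Itga4 (-2.11) passed, and on the right no gene passed, Cd47 (0.60) lying farthest from 0 relative to its SE.

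Cd47, which limits engulfment by macrophages, had the lowest unadjusted p of the members between the genotypes with vehicle, with PSGL-1 and in the average. In fresh cells it did not have the lowest. In fresh cells it had 517 and 613 CPM in KO libraries, against 341, 428 and 597 CPM in WT libraries. In vehicle culture it had 531, 430.4 and 386 CPM in KO libraries, against 262, 328 and 291 CPM in WT libraries. With PSGL-1 it had 618, 397 and 535 CPM in KO libraries, against 253 and 311 CPM in WT libraries. All KO libraries lay above all WT libraries in vehicle, as did 5.76% of genes, and with PSGL-1, as did 11.5% of genes, whereas the fresh groups overlapped.

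The Cd47 difference between genotypes did not pass in edgeR. The log2 fold change of KO against WT was 0.60 with vehicle (SE 0.22, adjusted p = 1 by edgeR) and 0.86 with PSGL-1 (SE 0.26, adjusted p = 0.765 by edgeR). Averaged over the 3 conditions it was 0.60 (SE 0.14, unadjusted p = 0.00061, adjusted p = 0.334 by edgeR). DESeq2 called the average (0.60, adjusted p = 0.00468), as it did 1.79% of all genes. Over the 16 fits that left out 1 library the average lay between 0.55 and 0.68 and passed in 1. That fit left out WT PSGL-1 replicate 2 (0.67, adjusted p = 0.00594 by edgeR), so that the sparse library stood alone for WT with PSGL-1, and 15.1% of all genes passed in it.

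Vehicle libraries of WT cells were also lower in Cd47 than all WT fresh libraries, as were 14.8% of genes, with a log2 fold change of -0.53 (adjusted p = 0.339 by edgeR). In the average of both genotypes it was -0.41 (SE 0.17, adjusted p = 0.174 by edgeR), and DESeq2 called it (-0.48, adjusted p = 0.0468), as it did 13.5% of all genes.

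Against WT cells, KO cells had none of the 10 members called when fresh, with vehicle or with PSGL-1, where in each case 0.00708% of tested genes passed, nor in the average of the 3 conditions, where 0.0354% passed. At an unadjusted p under 0.05 in edgeR there were 0 members in fresh cells, where 2.84% of all genes stood, and 1 (Cd47) with vehicle, where 2.83% stood. There were 2 (Cd44 and Cd47) with PSGL-1, where 5.81% stood, and 1 (Cd47) in the average, where 6.84% stood. DESeq2 called 0, 0, 0 and 1 member in these 4 comparisons, where it called 0.679%, 0.81%, 1.86% and 1.79% of all genes. Limma voom called 0 members in each, where it called 0.0496%, 0.0212%, 0% and 0.0354%. Cd44 with PSGL-1 read 77.1, 115 and 90.4 CPM in KO libraries, all below the 208 and 116 CPM of the WT libraries, of which the higher is the sparse one (log2 fold change -0.79, adjusted p = 0.765 by edgeR). With that library alone for WT, both Cd44 (log2 fold change -1.11, adjusted p = 0.0344 by edgeR) and Cd47 (log2 fold change 1.06, adjusted p = 0.0313 by edgeR) passed, among 2979 of 15020 genes (19.8%) that did. Itga6 with PSGL-1 read 351, 318 and 261 CPM in KO libraries, below the 431 and 521 CPM of the WT libraries. Such a gap, with KO lower, was found in 6.32% of all genes.

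PSGL-1 against vehicle called no member in KO or in WT cells, where 0% of all tested genes passed, and 0 members had an unadjusted p under 0.05 in edgeR, as did 1.40% of all genes in KO and 5.69% in WT cells. DESeq2 and limma voom also called 0 members in both genotypes. Spp1 had 195, 969.7 and 343 CPM in KO PSGL-1 libraries, a range like that of the KO vehicle libraries above, and 784 and 109.6 CPM in WT PSGL-1 libraries. Itga4 had 28.6, 19.1 and 19.1 CPM in KO PSGL-1 libraries and 66.2 and 21.04 CPM in WT PSGL-1 libraries, the 66.2 CPM being that of the sparse library and within the fresh range. In WT cells both PSGL-1 libraries lay above all vehicle libraries in Itga6, as did 5.87% of genes. In KO cells no member was apart between PSGL-1 and vehicle, as 7.98% of genes were.

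Whether the genotypes differed in these responses was tested directly. The difference of the vehicle against fresh change, KO minus WT, called no member, and 0% of all genes passed. It was 2.40 for Spp1 (SE 1.64, adjusted p = 1 by edgeR), a size that rests on the KO fresh library at 0 and ran from 1.27 to 9.27 with 1 library left out. It was -0.14 for Itga4 (SE 0.80, adjusted p = 1 by edgeR) on the log2 scale. The difference of the PSGL-1 against vehicle change called no member either, and again 0% of genes passed. It was -0.97 for Cd44 (SE 0.43, unadjusted p = 0.0383, adjusted p = 1 by edgeR), the only member under an unadjusted 0.05, as were 4.33% of all genes. In the difference of the vehicle against fresh change 0 members were under it, as were 2.50% of all genes. Counts by DESeq2 and limma voom were 0 in both differences. The Itga4 value turned positive in 4 fits that left out 1 library, and a p that misses the threshold does not show that the genotypes responded alike.

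Spp1 levels in culture were highest in the libraries with label numbers from 7 to 12, a pattern noticed after the values were seen. The share of all genes that separate in this way was not computed. The labels carry numbers from 1 to 18, without saying what they stand for, and libraries of the numbers 3 and 4 are not analysed here. For this description the numbers were divided into 3 runs of 6 (1 to 6, 7 to 12 and 13 to 18), a division that the labels do not state. The cultured libraries numbered 11 and 12, KO cells with vehicle and with PSGL-1, had 1000.1 and 969.7 CPM. Those numbered 8 and 9, WT cells with vehicle and with PSGL-1, had 782 and 784 CPM. The other 7 cultured libraries had 109.6 to 343 CPM, and among these the labels 1 to 6 lay within the range of the labels 13 to 18. Fresh libraries of the labels 7 to 12, numbered 10 and 7, had 0 CPM in KO and 2.07 CPM in WT cells.

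Within a set, Spp1 with vehicle stood 103-fold above fresh in KO cells of labels 13 to 18. In WT cells vehicle stood 126-fold above fresh in labels 1 to 6, 379-fold in labels 7 to 12 and 16.1-fold in labels 13 to 18. PSGL-1 stood at 0.794, 0.970 and 1.79 times vehicle in KO cells of the 3 sets in that order, and at 1.00 and 0.875 times vehicle in WT cells of labels 7 to 12 and 13 to 18. KO stood at 1.22, 1.28 and 1.53 times WT with vehicle, and at 1.24 and 3.13 times WT with PSGL-1 in the last 2 sets. Itga4 in vehicle stood at 0.161 and 0.290 times fresh in KO cells of labels 7 to 12 and 13 to 18, and at 0.182, 0.313 and 0.210 times fresh in WT cells of the 3 sets. Cd47 in KO cells stood at 2.03, 1.31 and 1.33 times WT with vehicle, at 1.57 and 1.72 times WT with PSGL-1, and at 1.21 and 1.03 times WT in fresh cells.

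**Figure D3:**
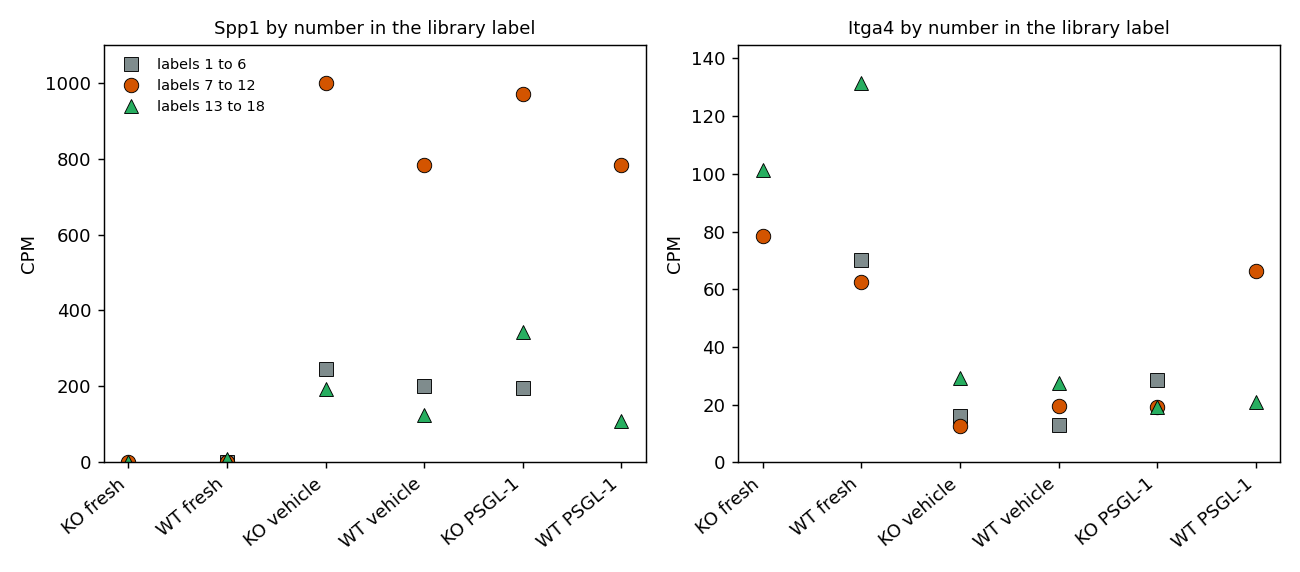
CPM of Spp1 (left) and Itga4 (right) by group, with the marker showing the set of numbers in the library label. In culture the 4 circles (labels 7 to 12) lie at 782 to 1000.1 CPM of Spp1 and the other 7 points at 109.6 to 343 CPM, while Itga4 is lower with vehicle than fresh in every set.

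Macrophages are a well known source of osteopontin, so their markers were read beside Spp1. The summed level of 8 macrophage markers was 98.6 to 214 CPM in the 6 vehicle libraries and 136 to 258 CPM in the 5 PSGL-1 libraries. In the 5 fresh libraries it was 441 to 663 CPM. Most of it was Lyz2, at 80.8 to 643 CPM. The defining marker Adgre1 was at 0 in 15 of 16 libraries, C1qb in 12, C1qa in 11, Mrc1 in 10 and Csf1r in 9. Cd68 was at 0 in 1 library and averaged 21.7 ± 16.7 CPM in KO vehicle and 11.6 ± 10.1 CPM in WT vehicle libraries, against 9.37 ± 2.87 CPM in KO fresh and 9.88 ± 3.54 CPM in WT fresh libraries (SD). Of 6 macrophage markers tested in the average, Lyz2 was lower and none was higher, while Cd68 (log2 fold change 0.79, adjusted p = 0.773 by edgeR) and Mrc1 (3.01, adjusted p = 0.596 by edgeR) had values above 0. In the fit without the sparse library C1qa, C1qb and Lyz2 were lower and none was higher. Markers of osteoblasts and stroma, which also make osteopontin, summed to 0.292 to 26.5 CPM in vehicle and 5.67 to 138 CPM in PSGL-1 libraries, against 17.3 to 93.9 CPM in fresh ones. The 138 CPM was that of the sparse library, the other PSGL-1 libraries reached 27.8 CPM, and Col1a2 made up nearly all of the sum, the 5 other markers being at 0 in 13 to 16 libraries. HSC markers summed to 1243 to 2042 CPM in vehicle and 1221 to 1954 CPM in PSGL-1 libraries, against 2106 to 2764 CPM in fresh ones. Granulocyte markers summed to 37.4 to 291 CPM in vehicle and 41.5 to 95.5 CPM in PSGL-1 libraries (41.5 in the sparse one, 52.0 or more in the others), against 284 to 686 CPM in fresh ones. Like Itga4, the sums of macrophage, HSC, and T and NK cell markers were each wholly lower in vehicle than in fresh libraries. T and NK cell markers summed to 10.2 to 21.6 CPM in vehicle, against 40.9 to 103 CPM in fresh libraries. With PSGL-1 they summed to 0 to 25.6 CPM, the 0 being that of the sparse library. Of these Cd3e, Cd3d and Cd8a were at 0 in all 16 libraries, and the sum was that of Nkg7 and Klrb1c, of which Klrb1c was called lower in the average. The part of these other cells and of the HSC markers in the changes of Spp1 and Itga4 was not tested.

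Levels of different genes can be compared roughly per kilobase of exon. The length used is the union of all annotated exons, 13978 bases for Itga4 and 1808 for Cxcr4. Where the union is longer than the transcripts in the cells, the value of a gene comes out too low. In fresh cells Cd47 was the most abundant member, at 90.0 ± 10.8 CPM per kilobase in KO (SD, n = 2) and 72.6 ± 20.8 in WT libraries (n = 3). Among the integrin chains of the group Itgb1 led, at 57.8 ± 10.5 CPM per kilobase in KO and 53.2 ± 10.8 in WT fresh libraries. Itga5 (28.9 in KO, 20.3 in WT) and Itga6 (19.8 in KO, 27.6 in WT) followed, and Itga4 was lower, at 6.43 in KO and 6.30 in WT. Cxcr4 stood at 7.04 CPM per kilobase in KO and 6.95 in WT fresh libraries, close to Itga4.

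The order differed in vehicle culture. There Spp1 was the most abundant member, at 291 ± 274 CPM per kilobase in KO and 224 ± 218 in WT libraries, against 0.568 ± 0.803 in KO and 2.32 ± 2.10 in WT fresh libraries. Itgal was the lowest member, at 0.124 CPM per kilobase in KO and 0.315 in WT vehicle libraries. Itga4 was the next lowest, at 1.38 ± 0.63 CPM per kilobase in KO and 1.43 ± 0.53 in WT vehicle libraries, below Cxcr4 at 5.97 ± 1.92 in KO and 6.35 ± 2.69 in WT. Cd47 was at 71.6 ± 11.8 CPM per kilobase in KO and 46.8 ± 5.28 in WT vehicle libraries, and Itgb1 at 70.2 ± 16.2 in KO and 59.8 ± 10.6 in WT, so that in WT cells Itgb1 had the higher mean with vehicle and Cd47 when fresh. In KO cells Itga6 (36.3 CPM per kilobase) had a higher mean than Itga5 (28.4) with vehicle, and the reverse held when fresh. These orders of means were not tested.

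**Figure D4:**
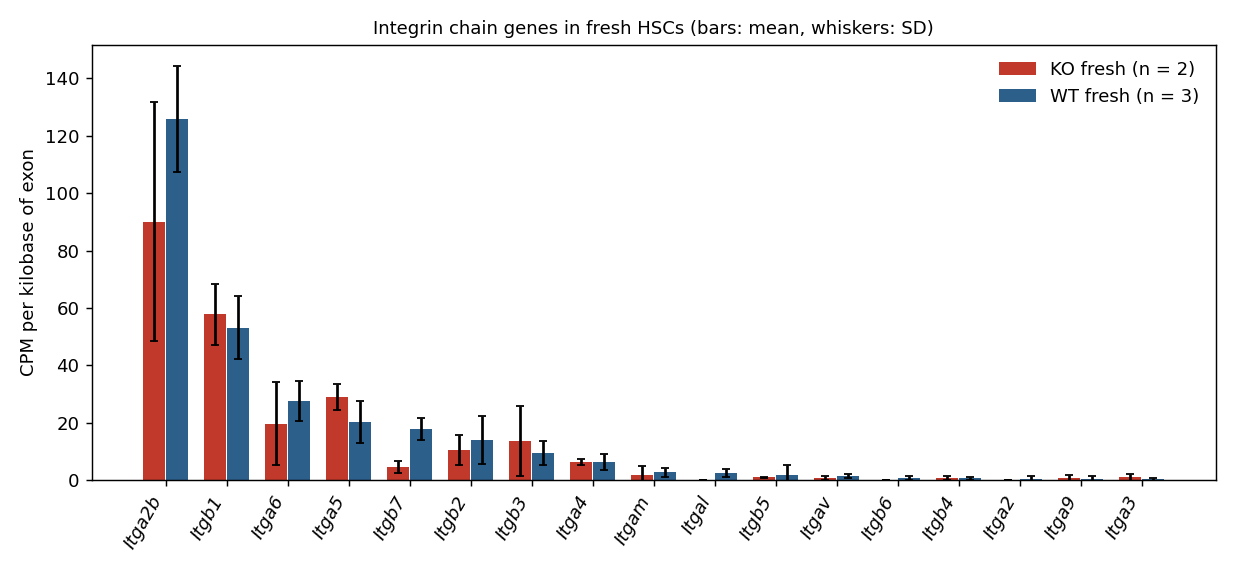
Mean CPM per kilobase of exon of the integrin chain genes in KO fresh (n = 2) and WT fresh (n = 3) HSCs, with SD as whiskers. Itga2b (90.1 in KO, 126 in WT) and Itgb1 (57.8 in KO, 53.2 in WT) stand highest, and Itgal is at 0.0221 in KO and 2.47 in WT.

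The other integrin chains place these values. Of 21 further chain genes 13 were tested, and in the average of both genotypes 1 was higher with vehicle than fresh and none lower (6.48% of all genes passed). It was Itgb3, the beta chain of platelet and vitronectin receptors (log2 fold change 1.86, SE 0.32, adjusted p = 0.00243 by edgeR). Itgb3 had 186, 251 and 172 CPM in KO vehicle and 228, 295 and 253 CPM in WT vehicle libraries, against 30.1 and 132 CPM in KO fresh and 36.1, 46.8 and 83.1 CPM in WT fresh libraries. Osteopontin is a known ligand of the receptor that the Itgb3 product forms with the Itgav product. Itgav stood at 3.01 ± 1.03 CPM per kilobase in KO vehicle and 3.56 ± 1.89 in WT vehicle libraries, against 0.947 ± 0.747 in KO fresh and 1.43 ± 0.69 in WT fresh libraries, and was called without the sparse library, when 2 of 14 chains were higher, as were 6.14% of all genes. The summed level of 7 megakaryocyte and platelet markers, Itgb3 among them, was 778 to 1420.04 CPM in vehicle and 809 to 1458 CPM in fresh libraries. With PSGL-1 it was 764 to 1967 CPM. Much of the sum was the chain gene Itga2b, at 331 to 1155 CPM over the 16 libraries. Of the 6 markers tested, 1 was higher (Itgb3) and 1 lower (Gp9, log2 fold change -2.33) in the average, where 4.18% of all genes were higher and 2.30% lower. Itgb7, the other beta partner of the Itga4 product, named after its values were seen, had 17.3 and 8.54 CPM in KO fresh libraries, against 60.5, 38.5 and 49.8 CPM in WT fresh libraries. With vehicle it had 4.00, 8.98 and 22.1 CPM in KO libraries, against 40.9, 60.3 and 33.9 CPM in WT libraries. With PSGL-1 it had 23.4, 12.99 and 1.94 CPM in KO libraries, against 0 CPM in the sparse and 19.5 CPM in the other WT library. KO lay wholly lower when fresh, as in 9.95% of genes, and with vehicle, as in 3.72%, but the groups overlapped with PSGL-1. Itgb7 was called in no comparison.

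Of 18 other integrin ligand genes 13 were tested, and in the average 2 were higher and 1 lower with vehicle than fresh, where 4.18% of all genes were higher and 2.30% lower. Tgfbi, a matrix protein that binds integrins, had 575, 509 and 616 CPM in KO vehicle and 479.9, 341 and 331 CPM in WT vehicle libraries, against 35.0 and 41.7 CPM in KO fresh and 18.7, 33.8 and 18.04 CPM in WT fresh libraries (log2 fold change 4.02, SE 0.20, adjusted p = 5.23e-08 by edgeR). Col4a1, a basement membrane collagen, averaged 189 ± 46.3 CPM in KO vehicle and 253 ± 55.0 CPM in WT vehicle libraries, against 66.3 ± 4.23 CPM in KO fresh and 84.8 ± 30.0 CPM in WT fresh libraries (log2 fold change 1.60, SE 0.24, adjusted p = 0.000845 by edgeR).

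Thbs1, a matrix protein that also binds Cd47, was the ligand that fell (adjusted p = 0.000319 by edgeR). It had 1, 0 and 0 counts in KO vehicle and 0 counts in all 3 WT vehicle libraries, against 40.3 and 45.6 CPM in KO fresh and 119, 83.6 and 57.5 CPM in WT fresh libraries. In WT cells it was at least 443-fold lower with vehicle, with the floor of 3 counts taken per library and averaged. With PSGL-1 it had 7 counts in 1 KO library and 0 in the others.

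Without the sparse library 3 of 15 ligand genes were higher and 3 lower, where 6.14% of all genes were higher and 4.23% lower, with Fn1 added on the higher side and Ccn3 and Vcam1 on the lower. Vcam1 and Fn1, named here after their values were seen, encode the ligands of VLA-4. Vcam1 had 0 counts in all 11 cultured libraries, against 10.5 and 4.85 CPM in KO fresh and 18.6, 4.77 and 0 CPM in WT fresh libraries. Fn1 had 47.3, 82.9 and 43.9 CPM in KO vehicle and 44.0, 59.7 and 23.1 CPM in WT vehicle libraries, against 0 and 6.37 CPM in KO fresh and 1.38, 11.1 and 17.9 CPM in WT fresh libraries. Both were outside the calls of the fit over all 16 libraries.

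**Figure D5:**
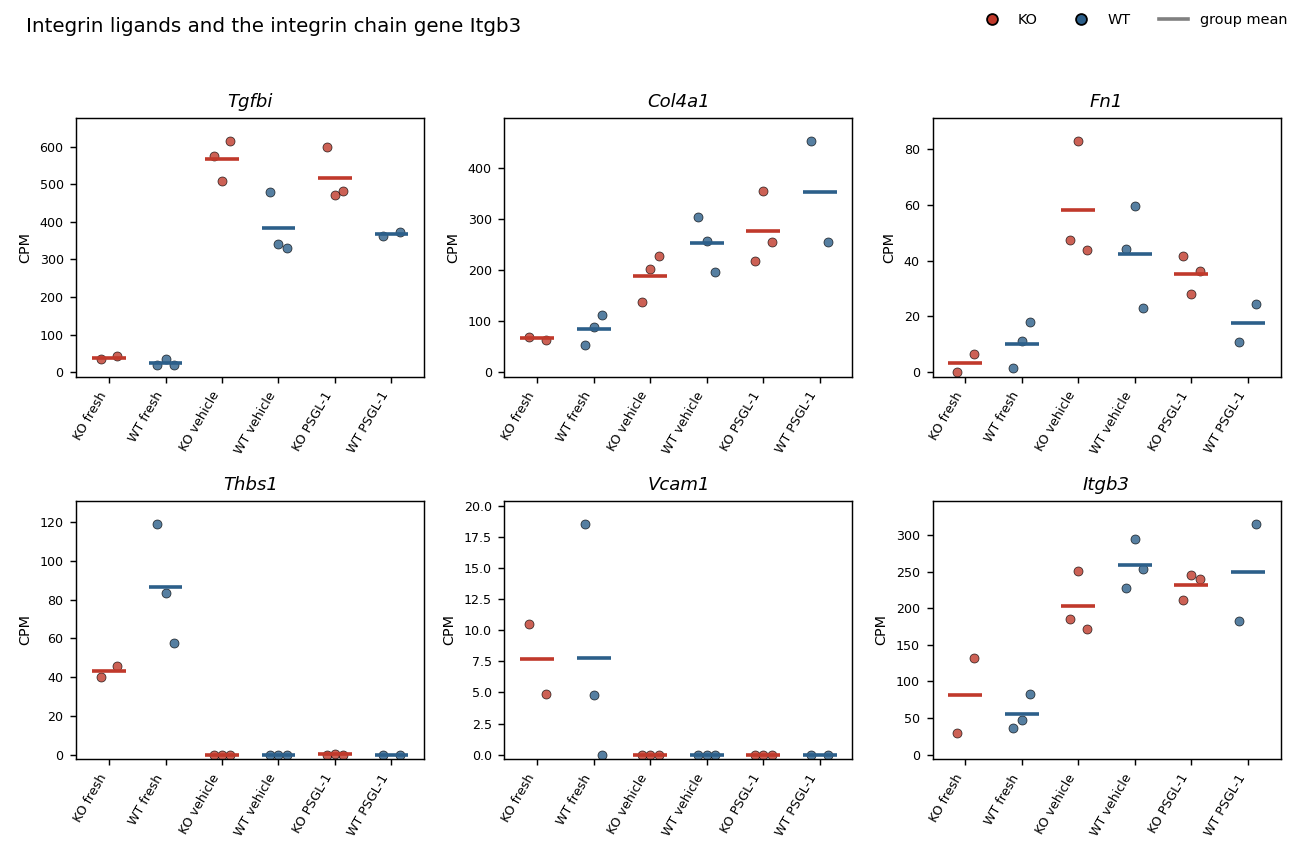
CPM of 5 integrin ligand genes and of the chain gene Itgb3 in each library (points) with group means (lines), KO left of WT within fresh, vehicle and PSGL-1. Tgfbi, Col4a1 and Itgb3 were higher and Thbs1 lower with vehicle than fresh in edgeR, and Thbs1 and Vcam1 lie at or near 0 in all cultured libraries.

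Of 31 adaptor genes that link integrins to actin or switch them on, 28 were tested, and in the average 3 were higher and none lower with vehicle than fresh, where 4.18% of all genes were higher and 2.30% lower. These were Lims1 (1.03), which joins integrin-linked kinase to the adhesion site, Actn4 (0.92), an actin crosslinker, and Ptk2b (0.84), a kinase of the focal adhesion kinase family, each value a log2 fold change. Adjusted p by edgeR was 0.0011 for Lims1, 0.0089 for Actn4 and 0.0221 for Ptk2b. Ptk2b passed in 11 and Actn4 in 15 of the 16 fits that left out 1 library. Without the sparse library 4 of 28 were higher and 1 lower, where 6.14% of all genes were higher and 4.23% lower.

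Of 17 partner genes of Cd44 and Cd47, 10 were tested, and 2 were higher and 1 lower in the average, where 4.18% of all genes were higher and 2.30% lower. Msn, the moesin that ties Cd44 to actin (log2 fold change 0.94, adjusted p = 0.00316 by edgeR), and Mmp14, a membrane protease that can cut Cd44 (1.96, adjusted p = 0.00942 by edgeR), were higher. The lower one was Thbs1, counted here as well. Mmp14 did not pass without KO fresh replicate 1 (adjusted p = 0.0676 by edgeR). Without the sparse library 3 of 13 were higher and 1 lower, beside the same 6.14% and 4.23% of all genes.

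Around Cxcr4, 32 of 33 genes of its signalling and control were tested, with 2 higher and 1 lower in the average, where 4.18% of all genes were higher and 2.30% lower. Mif, a cytokine that also binds Cxcr4 (log2 fold change 0.84, adjusted p = 0.00363 by edgeR), and Rgs10, a brake on G protein signalling (3.52, adjusted p = 0.0288 by edgeR), were higher, and Rgs18, another such brake, was lower (-0.77, adjusted p = 0.00535 by edgeR). Rgs10 passed in 10 of the 16 fits that left out 1 library. Without the sparse library 4 were higher and 3 lower, beside 6.14% and 4.23% of all genes. Of 32 other chemokine and homing receptors 25 were tested, of which none was higher and 1, the sphingosine phosphate receptor S1pr4, was lower (-1.94, adjusted p = 0.0231 by edgeR), where 6.48% of all genes passed. S1pr4 passed in 11 of the 16 fits, and without the sparse library 1 of 26 of these receptors was higher and 2 lower, where 10.4% of all genes passed. None of these lists had a gene called between KO and WT or between PSGL-1 and vehicle.

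The genes whose log2 CPM ran most like a member over the 16 libraries are given as a description. All 16 share the split between fresh and cultured cells, so any gene that moved in culture can score highly. For Spp1 they were Fdps (Pearson r = 0.97), Dhcr7 (0.96) and Dpysl2 (0.96), and without the sparse library Mvd (0.98), Dpysl2 (0.97) and Hmgcs1 (0.97). Fdps, Dhcr7, Mvd and Hmgcs1 encode enzymes of cholesterol synthesis. Fdps averaged 828 ± 143 CPM in KO vehicle and 833 ± 79.2 CPM in WT vehicle libraries, against 47.3 ± 18.6 CPM in KO fresh and 93.7 ± 20.2 CPM in WT fresh libraries.

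For Itga4 the most alike genes were Gatd1 (0.91), Tmem44 (0.91) and Angpt1 (0.90), and without the sparse library Lmo2 (0.94), Abca1 (0.93) and Klrb1c (0.93). Angpt1, the angiopoietin that acts on Tie2, averaged 121 ± 10.6 CPM in KO vehicle and 99.3 ± 19.3 CPM in WT vehicle libraries, against 416 ± 161 CPM in KO fresh and 427 ± 66.2 CPM in WT fresh libraries. For Cxcr4 they were Fam3a (0.87), Wipi1 (0.85) and Sclt1 (0.80), and without the sparse library Fam3a (0.81), Plbd2 (0.79) and Wipi1 (0.75). All 3 lists of alike genes changed when the sparse library was left out.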

How the data were processed

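The authors deposited raw counts per gene symbol for 16 bulk RNA-seq libraries of mouse HSCs. Per the labels' protocols, RNA came from an RNeasy Plus Micro kit and libraries from the SMART Ultra-Low Input kit, which carries no strand mark that the labels name. The submitters' processing notes name STAR 2.7.5c, featureCounts, MultiQC 1.10, DESeq2 and mm10. Neither the annotation, the strand setting nor the handling of multimapping reads is given in the sources used here, so counts of overlapping genes may share reads.

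Counts were filtered with filterByExpr, scaled by TMM and fitted in 1 robust edgeR quasi-likelihood model with 1 mean for each of 6 groups. P-values were adjusted by Benjamini-Hochberg over all 14124 tested genes, with a threshold of 0.05. The SE of a fold change is its size over the root of F. CPM use library totals. CPM per kilobase use the union of exons of GENCODE M21, and coordinates and promoters come from RefSeq on GRCm38.p6, the assembly also called mm10. Library totals were 12590539 to 24690824, and detection floors cover counting error only. None of the 120 pairs of libraries agreed within sampling noise (lowest chi-square per degree of freedom 48.6).

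The members and lists were chosen with earlier results of these data known. Named genes were the members and up to 4 called genes of each other list. Also named were the 3 genes with at least 5 CPM in 1 group most correlated with Spp1, Cxcr4 or a called member. Outside this rule stand Selp, as a check of the labels, Itgav, Itga2b, Itgb7, Vcam1, Fn1, Ccn3 and single cell type markers. Alternatives were DESeq2, RLE scaling, no filter, a stricter filter (1 CPM in 8 libraries), only the groups compared, each library left out, 2 replicate blocks, and limma voom. Some genes of the marker lists are not reported here by name. The fit code was also run on simulated counts. Their spread was set beforehand and not estimated from these data, so that run does not measure how the fit performs here. Tools were DESeq2 1.42.0, limma 3.58.1 and edgeR 4.0.16 in R 4.3.3.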

Additional observations from a re-analysis of the deposited data

How the results depend on the processing

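The call of Itga4 in the average of both genotypes held in all 24 alternatives. In vehicle against fresh, DESeq2 called 2 members (Itga4 and Spp1) in KO cells and 2, again these, in WT cells, where it called 6.31% and 6.05% of all genes. Limma voom called 0 in WT cells, where it called 4.999% of all genes. In KO against WT averaged over the 3 conditions DESeq2 called 1, Cd47, and 1.79% of all genes. With each library left out in turn, the number of members called ranged from 0 to 2 in KO and from 0 to 2 in WT vehicle against fresh, from 2 to 3 in their average, and from 0 to 3 in KO against WT with PSGL-1, where the 3 (Itgb2, Cd44 and Cd47) rest on the sparse library as the lone WT sample. It ranged from 0 to 2 in KO against WT averaged, from 0 to 1 in WT PSGL-1 against vehicle, and from 0 to 1 in the difference of the PSGL-1 change. A lone sample was assumed to vary like the other groups. In the average, limma voom called Itga4 and Itga6 but not Spp1.

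The difference of the vehicle change for Itga4, -0.14, ranged from -0.58 to 0.20 with 1 library left out. The differences of the PSGL-1 change ranged from -1.48 to 0.11 for Itga4 and from -1.37 to 1.79 for Spp1, both across 0. The causes were not tested. RLE scaling moved the median of all genes in the average to -0.13 and no count of members called.

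Deviations from the group mean over all tested genes were correlated between libraries. Correlations were -0.072 to 0.076 over 36 pairs with the same title number, and -0.072 to 0.1 within a label set. The numbers were not used as pairs. In groups of 2 libraries the deviations mirror each other, so low values do not show that libraries were independent. Spp1 in culture did vary with the label number. With the replicate block by title number, 788 of the tested genes passed in the averaged vehicle against fresh comparison, against 915 without it, and by label number 819. The Spp1 difference of the PSGL-1 change was 0.28 with the replicate block by label number, against -0.21 without it. No count of members called changed by the block.

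With 2 or 3 libraries a group, low genes such as Itgal, Itgb2 and Cxcr4 had SEs of 0.69 or more in the averaged comparison, so moderate changes in them were not detectable.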
